A study of Bos taurus with 19 samples.

Results

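Neurotrophin signalling in the bovine follicle wall was examined through 3 genes: NTRK2, which encodes TrkB, the tyrosine kinase receptor of brain-derived neurotrophic factor, NGFR, which encodes the low-affinity neurotrophin receptor p75, and BDNF, the ligand itself. Every probe set whose annotation gave 1 of these symbols and no other was taken, which made 5 of the 24127 probe sets, 2 for NTRK2, 3 for NGFR and 0 for BDNF. BDNF is therefore not analysed here. The genes were chosen by earlier results of these same arrays, and NTRK2 was among the genes that the study had selected on their signal in large against small healthy follicles, so values of that comparison are given as a description only. How NGFR and BDNF were picked is not recorded.

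RNA of the theca interna, the inner layer of the follicle wall, was measured on 19 one-colour Affymetrix bovine arrays, 1 follicle to an array. The ovaries came from non-pregnant Bos taurus heifers after slaughter, the follicles had received no treatment, and the granulosa cells had been scraped away before the theca was dissected. There were 5 small atretic follicles, 4 large healthy follicles over 9 mm in diameter, 5 small healthy follicles whose basal granulosa cells were rounded and 5 small healthy follicles in which they were columnar. Small follicles measured 3 to 5 mm, and atresia, the degeneration of a follicle, was judged from the histology of the wall. No source says that each follicle came from a separate animal, so p-values cover no more than the spread among these follicles. The sample records name a different RNA extraction kit for atretic, large and small healthy follicles and a smaller amount of RNA taken for labelling from the atretic ones, so that follicle health or size and the preparation of the RNA cannot be told apart.

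Neurotrophins are small secreted proteins, best known for keeping neurons alive, and are made as precursors that proteases such as furin, plasmin and matrix metalloproteinases cut to the mature form. The mature ligands bind Trk receptors, of which TrkB takes brain-derived neurotrophic factor and neurotrophin 4, and TrkB passes the signal on through SHC and FRS2 adaptors to the RAS and MAP kinase, PI3 kinase and phospholipase C gamma pathways. The p75 receptor binds all neurotrophins and, with sortilin family co-receptors, their precursors, and it can raise Trk signalling or signal to cell death. Truncated forms of TrkB that lack the kinase domain are also known, and the annotation used does not say which form each probe set detects. Ovaries of several mammals are known to make neurotrophins and their receptors, outside nerve fibres as well as in them.

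Markers of the steroidogenic theca were present, though not all of them on every array. INSL3 had log2 signals of 10 to 12.5, CYP11A1 of 7.4 to 10.8 and HSD3B1 of 8 to 10.2 over the 19 arrays. STAR ran from 6.2 to 10.8 and NR5A1 from 7.2 to 8.3. CYP17A1, at 3 to 9.2, was above 3 on 18 arrays, and LHCGR, at 2.1 to 4.7, on 17. Some granulosa cell markers were above 3 on all 19, among them INHA at 7.8 to 10.8, FST at 7.2 to 10.2 and INHBA at 5.3 to 10.3. CYP19A1 was above 3 on 4 arrays and FSHR on 0. Of the markers of nerve and Schwann cells, SOX10 lay at 2.7 to 3.1, and GFAP, ERBB3, NEFL, NEFM, DBH and GAP43 were at or under 2.9 on all arrays. TH lay at 2.5 to 3.3 and was above 3 on 9 of the 19 arrays, while S100B, NCAM1 and UCHL1 were above 3 on all 19. A log2 signal of 3 was taken as the limit of detection, after the methods of the study. Arrays of 1 group correlated with each other at 0.969 to 0.992 across probe sets, and no pair was identical.

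NTRK2 was higher in the theca of atretic follicles than in that of small healthy follicles, and it did not differ detectably between rounded and columnar follicles. On the probe set Bt.12217.3.A1_at the log2 signals were 7.2, 6.7, 5.1, 5.4 and 7.2 in the 5 small atretic follicles. In the 4 large follicles they were 7.8, 4.5, 5.7 and 6.3. The small healthy follicles had 5.8, 5.1, 4.2, 4.4 and 2.5 with rounded granulosa cells and 4.3, 3.2, 4.7, 5.4 and 4.5 with columnar granulosa cells. Thus 3 of the atretic follicles were high, at 6.7 and over, whereas no small healthy follicle exceeded 5.8, and the lowest signal of all came from a rounded follicle. The share of all probe sets that separated these groups as far was not counted.

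On the second NTRK2 probe set, Bt.12217.2.S1_at, the signals were 5.3, 4.9, 3.5, 3.7 and 4.8 in small atretic follicles. Large follicles had 5.4, 3.6, 4.5 and 5.0. Rounded follicles had 4.0, 3.5, 2.7, 2.9 and 1.8, and columnar follicles had 2.9, 2.2, 3.4, 3.4 and 2.8. All 5 atretic and all 4 large follicles were above the limit of detection, but only 4 of the 10 small healthy follicles were. The same 3 atretic follicles, numbers 1, 2 and 5, were high on both probe sets.

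**Figure D1:**
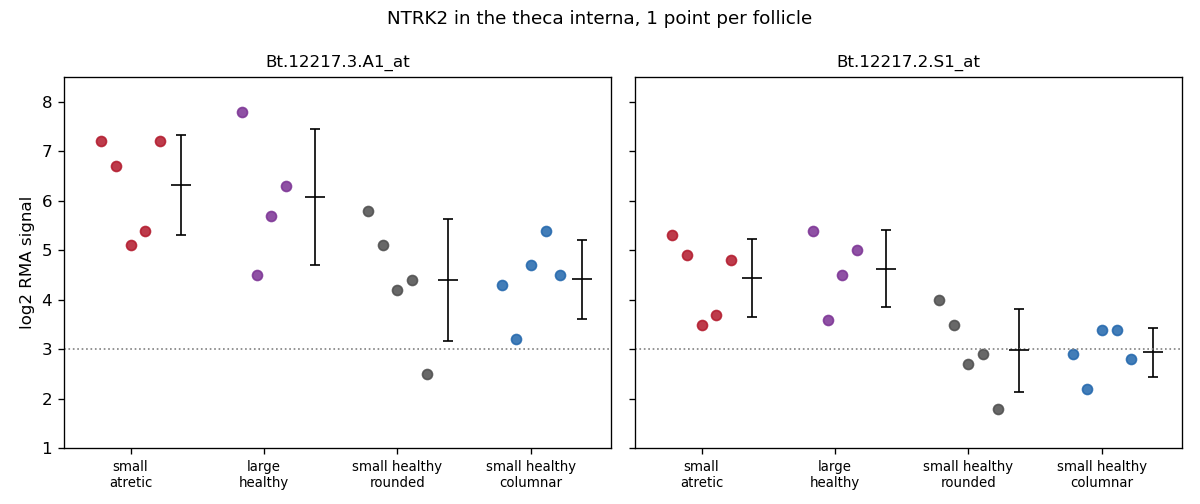
The log2 RMA signal of NTRK2 is plotted for each follicle (points, 1 per array) by group for the probe sets Bt.12217.3.A1_at (left) and Bt.12217.2.S1_at (right), with the mean and SD of each group as bars and the detection limit of 3 dotted. On both probe sets 3 of the 5 atretic points lie above all 10 small healthy points, and the rounded and columnar groups overlap.

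Ordered by level on the first probe set, NTRK2 averaged 6.32 ± 1.0 in small atretic follicles (SD, n = 5), 6.08 ± 1.37 in large follicles (n = 4), 4.42 ± 0.80 in columnar follicles (n = 5) and 4.40 ± 1.23 in rounded follicles (n = 5). On the second probe set the large follicles came first at 4.63 ± 0.78, then the atretic follicles at 4.44 ± 0.79, the rounded follicles at 2.98 ± 0.83 and the columnar follicles at 2.94 ± 0.50. Atretic and large follicles, which changed places between the probe sets, lay closer together than the SD of either group, and so did rounded and columnar follicles.

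Atretic follicles were compared with small healthy follicles to ask what differs with follicle health at 1 follicle size. NTRK2 rose by 1.91 on the log2 scale on the first probe set, a 3.76-fold difference, in atretic over small healthy follicles (SE 0.49, 95% interval 0.88 to 2.94, limma adjusted p = 0.0105 over 15470 probe sets). The exact two-sided permutation test over all splits of the 15 follicles into 5 and 10 gave an unadjusted p = 0.00433. The small healthy arrays are the same ones that NTRK2 was selected against in large follicles, so these p-values are not independent of the selection. On the second probe set the mean was 4.44 in atretic and 2.96 in small healthy follicles, below the limit of detection, and since it passed the filter on low signals only through the group where it was high, its difference of 1.48 is given with no test. Higher signals in atretic follicles were common, since 16.9% of the probe sets tested passed the same test in this direction. In a bulk sample, more cells of a type and more RNA per cell cannot be told apart. On the first probe set the difference was 1.92 against the 5 rounded follicles alone, which did not pass (limma adjusted p = 0.0914), and 1.90 against the 5 columnar follicles alone, which did (limma adjusted p = 0.0149).

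Leukocyte genes were also higher in the atretic group. All 6 of the 6 leukocyte markers measured rose in atretic over small healthy follicles, among them CD68, a lysosomal protein of macrophages, by 2.70 on the log2 scale, and CD14, the co-receptor of monocytes for lipopolysaccharide, by 2.24. The mean signal of the 6 markers was 5.07 to 6.37 in atretic follicles and 3.78 to 5.02 in small healthy follicles, so the ranges did not meet. In atretic follicles 1 to 5 this mean was 6.13, 5.33, 5.07, 6.37 and 6.33. NTRK2 on its first probe set was 7.2, 6.7, 5.1, 5.4 and 7.2 in the same follicles. Against the 5 rounded follicles alone 0 of the 6 passed, and against the 5 columnar follicles alone 5 did. In large follicles, whose mean NTRK2 was also high, the mean of the leukocyte markers was 4.58 to 5.37. Their part in the NTRK2 result was not tested.

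Single markers of other cell types also passed. The mean of 8 fibroblast and stroma markers was 9.21 to 9.55 in atretic and 8.90 to 9.43 in small healthy follicles, and 2 of the 8 genes rose, PDGFRA and FBLN1. The mean of the smooth muscle and pericyte markers was 6.39 to 7.35 in atretic and 6.21 to 7.16 in small healthy follicles, with MYH11 and DES higher and CSPG4 lower. For 8 endothelial markers the mean was 5.08 to 5.94 in atretic and 5.05 to 5.46 in small healthy follicles, and 0 of the 7 that could be tested passed. The mean of the 11 nerve and Schwann cell markers was 3.31 to 3.57 in atretic and 3.48 to 3.65 in small healthy follicles, and NCAM1 fell by 0.72. The mean of the 10 granulosa cell markers was 5.10 to 6.52 in atretic and 5.95 to 6.78 in small healthy follicles, with INHBA and AMH lower and GATM higher. Of the steroidogenic theca markers CYP11A1, which starts steroid synthesis from cholesterol, fell by 1.31, and the mean of the list was 6.41 to 8.71 in atretic and 7.63 to 8.97 in small healthy follicles. The part of these cell types in the NTRK2 result was not tested.

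Large follicles were set against the 10 small healthy follicles for the change with follicle growth. On the first probe set NTRK2 averaged 6.08 in large and 4.41 in small healthy follicles, a 3.17-fold difference, and 2 of the 4 large follicles lay above all 10 small healthy follicles. On the second it averaged 4.63 in large and 2.96 in small healthy follicles, and 3 of 4 lay above all 10. How many of all probe sets separated large from small healthy follicles as far was not counted. The mean of 2.96 is itself below the limit of detection. Large follicle 2, at 4.5 and 3.6, was within the range of the small healthy follicles on both probe sets, and its mean of the granulosa cell markers, 7.28, was the highest of the 19 arrays. Some other markers moved with follicle size. DES, an intermediate filament protein of muscle, rose 2.37-fold in large follicles (limma adjusted p = 0.0187). The study had selected DES too on this comparison, so this p-value is not independent of that selection. DES was the only one to pass of 8 smooth muscle and pericyte markers. COL1A1, COL1A2 and THY1 rose, 3 of 8 fibroblast and stroma markers, and AMH fell, 1 of 8 granulosa cell markers tested. The median differences of these lists were 0.68, 0.26 and 0.2175. PDGFRB, DCN, LUM and HSD17B1 were lower without passing. The remaining granulosa cell markers tested were higher without passing, among them CYP19A1 and INHBA. All endothelial and leukocyte markers tested were also higher without passing, with median differences of 0.525 over 7 and 0.5225 over 6 genes. For the nerve and Schwann cell and the steroidogenic theca markers the medians were 0.025 and 0.12, and 0 passed. The mean of the smooth muscle and pericyte markers was 6.90 to 7.74 in large and 6.21 to 7.16 in small healthy follicles. Their part in the NTRK2 values was not tested. Over all probe sets, 2.59% passed the test with a higher and 0.983% with a lower signal in large follicles, and nothing about NTRK2 is read from these shares because the gene was selected on this comparison.

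Between rounded and columnar follicles, whose basal lamina also differs in form, NTRK2 gave no detectable difference. Rounded minus columnar was -0.02 on the first probe set (SE 0.64, 95% interval -1.39 to 1.35, limma adjusted p = 1). The exact permutation test over 252 splits gave p = 1. This interval still allows a change of over 2-fold either way. On the second probe set the difference was 0.04, given with no test. Only 2 of 5 rounded and 2 of 5 columnar follicles were above the limit of detection there, and it entered this fit only through the large follicles. In the whole comparison 0 of 15570 probe sets passed (0%), with 360 at an unadjusted limma p under 0.05.

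NGFR gave no detectable difference between atretic and small healthy or between rounded and columnar follicles, and its lowest group mean was that of the large follicles. On the probe set Bt.10065.1.S1_at its log2 signals were 3.8, 5.6, 3.9, 4.3 and 3.0 in small atretic follicles. They were 4.3, 3.3, 3.5 and 2.7 in large follicles. Rounded follicles had 4.1, 4.7, 5.5, 4.0 and 4.3, and columnar follicles had 4.8, 5.3, 3.9, 4.0 and 3.5. The atretic follicles spanned the whole range of the small healthy ones, with 1 above all and 1 below all of them, while 2 of the 4 large follicles lay below all 10. The share of all probe sets with such a separation was not counted.

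**Figure D2:**
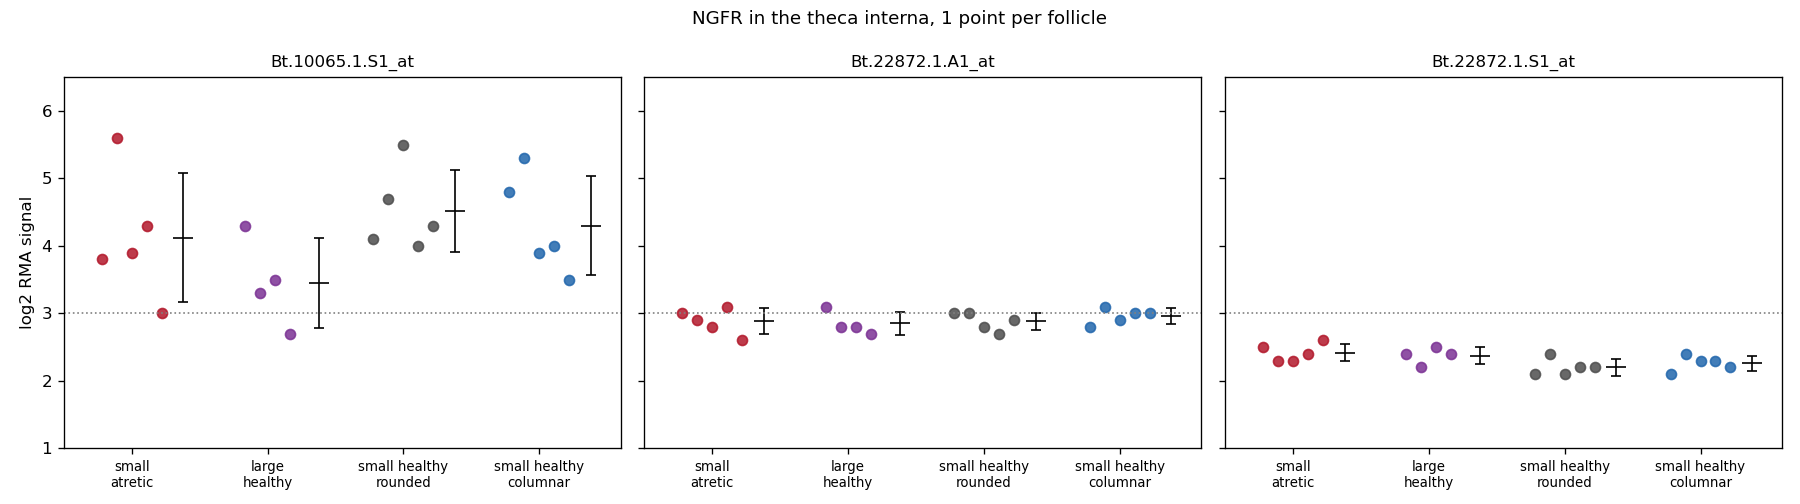
The log2 RMA signal of NGFR is plotted for each follicle (points, 1 per array) by group for its 3 probe sets, with the mean and SD of each group as bars and the detection limit of 3 dotted. Only Bt.10065.1.S1_at lies above the limit in most follicles, and there the atretic, rounded and columnar groups overlap.

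In order of level NGFR averaged 4.52 ± 0.61 in rounded follicles (SD, n = 5), 4.30 ± 0.73 in columnar follicles (n = 5), 4.12 ± 0.95 in small atretic follicles (n = 5) and 3.45 ± 0.66 in large follicles (n = 4). Each neighbour in this order lay within 1 SD of the next, apart from the step between atretic and large follicles, which at 4.12 and 3.45 was about the SD of the large group. Atretic minus small healthy was -0.29 (SE 0.37, 95% interval -1.08 to 0.50, limma adjusted p = 0.564), with an exact permutation p = 0.496, while 15.1% of all probe sets passed with a lower signal in atretic follicles. Rounded minus columnar was 0.22 (SE 0.38, interval -0.59 to 1.03, limma adjusted p = 0.996) with an exact permutation p = 0.619. In large follicles NGFR averaged 3.45, against 4.41 ± 0.65 in the 10 small healthy follicles, or 0.514 of their signal, given as a description.

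The other NGFR probe sets, Bt.22872.1.A1_at and Bt.22872.1.S1_at, stayed near or below the limit of detection and did not enter the fit. Bt.22872.1.A1_at was at 2.6 to 3.1 on the 19 arrays and Bt.22872.1.S1_at at 2.1 to 2.6. On Bt.22872.1.S1_at, atretic minus small healthy was 0.19 with an unadjusted exact permutation p = 0.0206, with every value below the limit of detection. Of the 3 NGFR and 2 NTRK2 probe sets, 3 passed the filter on low signals, 1 for NGFR and 2 for NTRK2, of which the second did so only through the atretic and the large follicles.

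A wider list held genes of the neurotrophin pathway and of other neurotrophic families, together called pathway genes here. Of its 77 symbols, 37 had a probe set, and 30 of these could be tested between atretic and small healthy follicles. The other families made up 16 of the symbols and 5 of the genes tested. BEX3 was listed also under its older symbol NGFRAP1, which had no probe set. In atretic follicles 7 of the 30 rose and 2 fell, with a median log2 difference of 0.085. Over all 7351 genes tested 16.8% rose and 16.7% fell, with a median of -0.01. The lists were drawn up with results of these arrays known, so the counts are a description and nothing is called particular to the pathway.

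**Figure D3:**
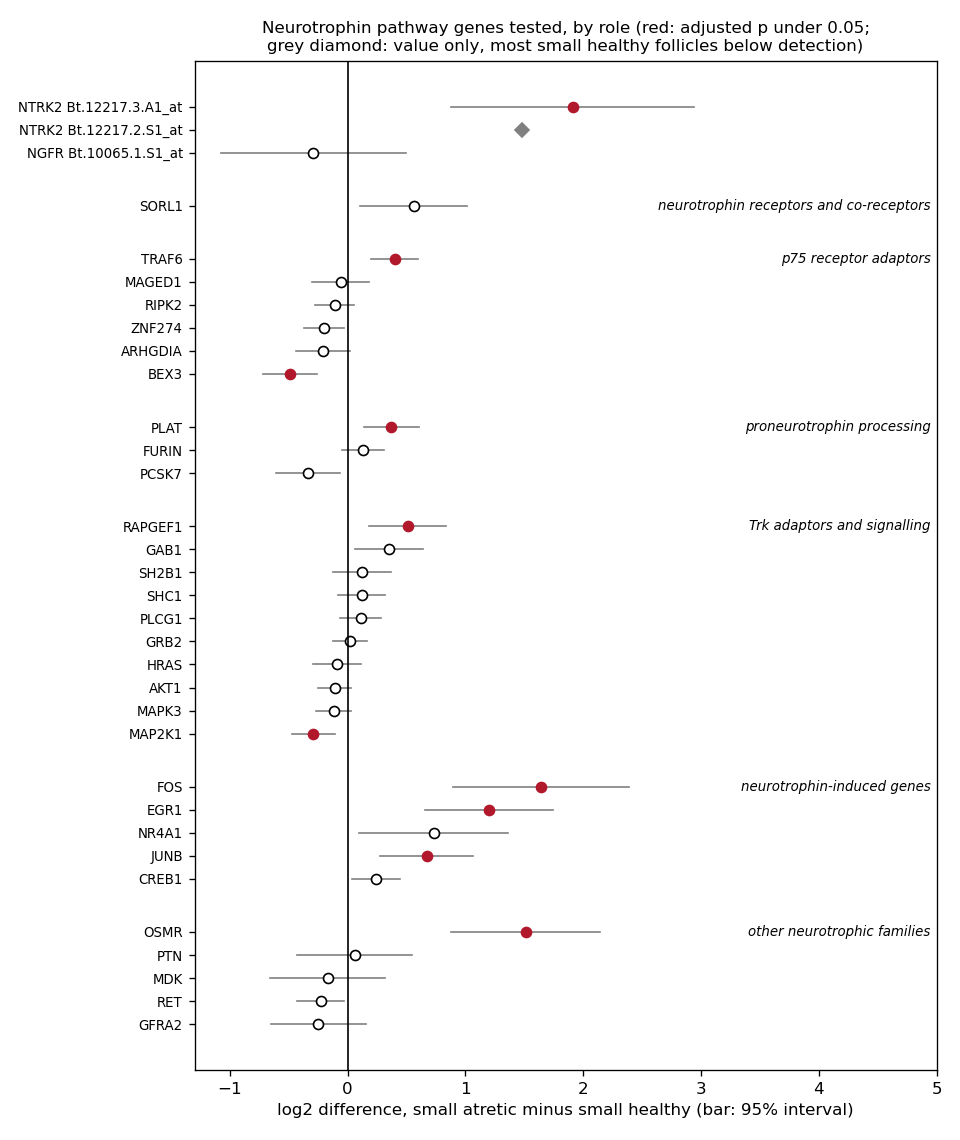
Log2 differences, small atretic minus small healthy, with 95% intervals (horizontal bars) for the member probe sets and for the 30 pathway genes tested, grouped by role, with red points for an adjusted p under 0.05 and a grey diamond, with no interval, for the second NTRK2 probe set. Both NTRK2 probe sets and FOS, OSMR and EGR1 lie at 1.20 or more, and most other genes lie between -0.5 and 0.5.

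Among ligands, receptors and co-receptors little could be measured. The ligand genes NTF3 and NTF4 are not analysed here, since no probe set used carried their symbols. The probe sets of NTRK3, the receptor TrkC of neurotrophin 3, and of the sortilin family receptor SORCS3 stayed at or under 2.8 on every array. SORL1, a sorting receptor of the same family that carries TrkB and other cargo between endosomes and the cell surface, averaged 6.54 ± 0.55 in atretic (SD, n = 5) and 5.98 ± 0.36 in small healthy follicles (n = 10), a difference of 0.56 that did not pass (SE 0.21, limma adjusted p = 0.0554).

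Of 6 genes whose products act with p75, 1 rose and 1 fell in atretic follicles. TRAF6, a ubiquitin ligase that p75 recruits to activate NF-kappaB, averaged 5.78 ± 0.11 in atretic and 5.38 ± 0.19 in small healthy follicles, higher by 0.40 (SE 0.09, limma adjusted p = 0.00778). BEX3, also known as NADE, was first described as a protein that binds the death domain of p75. It ran 8.6 to 9.2 in atretic and 9.3 to 9.7 in small healthy follicles, and fell by 0.49 (SE 0.11, limma adjusted p = 0.00563), as 16.7% of all genes tested fell. How many probe sets separated the groups to such a degree, here or for NTRK2, FOS, EGR1 and OSMR, was not counted. Large follicles, at 8.9 to 9.3, had 3 of 4 follicles below all small healthy ones.

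Of the proteases that process the precursors, PLAT, the tissue plasminogen activator that makes plasmin, rose by 0.37 in atretic follicles, to 8.78 ± 0.22 against 8.41 ± 0.20 in small healthy follicles (SE 0.11, limma adjusted p = 0.0207). PCSK7, a proprotein convertase, averaged 4.94 in atretic and 5.28 in small healthy follicles and did not pass (limma adjusted p = 0.0532), and FURIN was at 4.30 and 4.17 in the same groups. PLG and MMP9, for plasminogen and a gelatinase, stayed at or under 2.7 on every array.

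Of 10 adaptors and kinases downstream of Trk receptors, 1 rose and 1 fell. RAPGEF1, a guanine nucleotide exchange factor that activates RAP1, rose by 0.51 to 6.16 ± 0.33 in atretic follicles, against 5.65 ± 0.28 in small healthy follicles (SE 0.15, limma adjusted p = 0.0217). MAP2K1, the kinase MEK1, fell by 0.29 to 6.64 ± 0.05 in atretic follicles, against 6.93 ± 0.17 in small healthy follicles (SE 0.09, limma adjusted p = 0.0196). Without atretic follicle 5 neither passed (limma adjusted p = 0.0669 for RAPGEF1 and 0.051 for MAP2K1), nor did PLAT (limma adjusted p = 0.0729), and without atretic follicle 2 RAPGEF1 did not (limma adjusted p = 0.0682). For the remaining 8, among them SHC1, PLCG1, GRB2 and AKT1, the differences were between -0.12 and 0.35 and did not pass.

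Genes that neurotrophins are known to induce in neurons also answer to other stimuli, and 3 of the 5 tested rose in atretic follicles. CREB1, with a difference of 0.24, and NR4A1, with 0.73, did not pass (limma adjusted p = 0.0697 and 0.0708). FOS, a subunit of the transcription factor AP-1, had log2 signals of 8.4 to 9.9 in atretic follicles and 6.2 to 9.1 in small healthy follicles, and rose by 1.64 or 3.12-fold (SE 0.35, limma adjusted p = 0.00499). EGR1, a zinc finger transcription factor, had 8.0 to 9.3 in atretic and 7.1 to 8.8 in small healthy follicles and rose by 1.20 or 2.30-fold (SE 0.26, limma adjusted p = 0.00473). In each of these genes 3 of the 5 atretic follicles lay above all small healthy ones. JUNB, another AP-1 subunit, named here after its values were seen, rose by 0.67 (SE 0.18, limma adjusted p = 0.0147). In large follicles FOS ranged from 6.4 to 10 and EGR1 from 6.8 to 9.3, and 1 large follicle lay above all small healthy follicles in each gene.

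Of the other neurotrophic families 1 of 5 genes tested rose. OSMR, the oncostatin M receptor of the gp130 family, had log2 signals of 5.2 to 7.7 in atretic follicles and 4.4 to 5.6 in small healthy follicles, and 4 of the 5 atretic follicles lay above all 10. The rise was 1.51 or 2.85-fold (SE 0.30, limma adjusted p = 0.00327). RET, the tyrosine kinase receptor of the glial cell line-derived factor family, was close to the limit of detection at 3.10 ± 0.12 in atretic and 3.33 ± 0.18 in small healthy follicles and did not pass (limma adjusted p = 0.0721). GDNF and LIF, ligands of 2 of these families, were at or under 2.9 on every array. Against the 5 rounded follicles alone 0 pathway genes and 244 probe sets in all passed, with differences of 1.62 for OSMR, 1.42 for FOS, 1.12 for EGR1 and -0.50 for BEX3. Against the 5 columnar follicles alone 8 pathway genes rose and 2 fell, and 4933 probe sets passed.

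**Figure D4:**
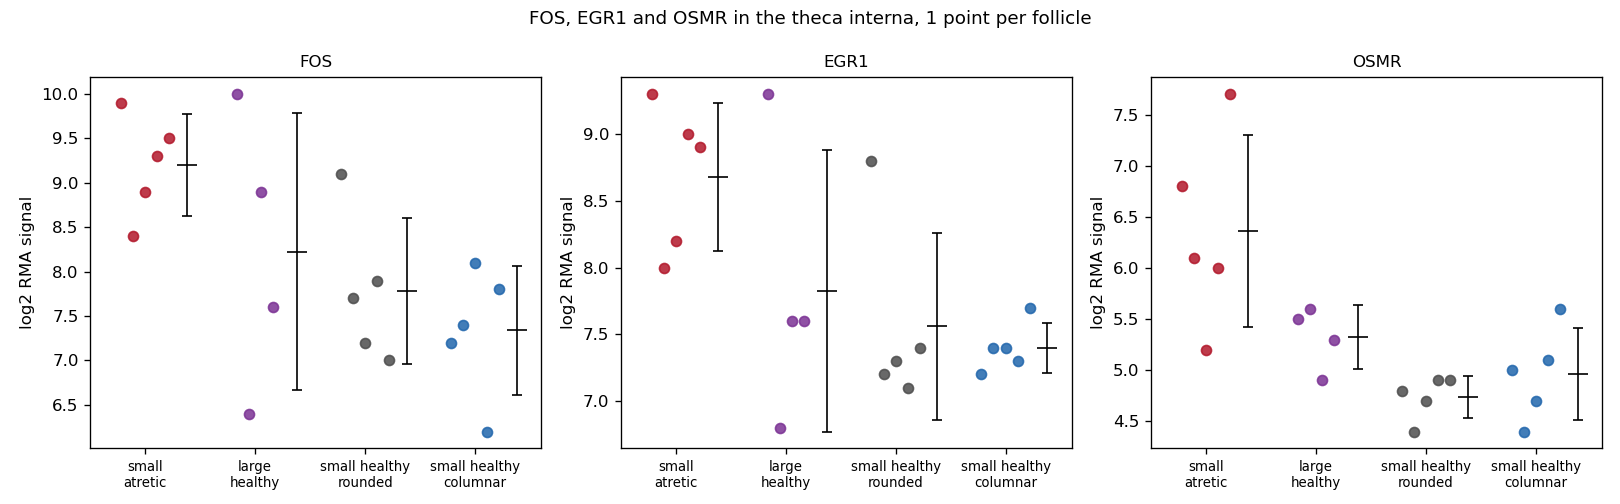
The log2 RMA signals of FOS, EGR1 and OSMR are plotted for each follicle (points, 1 per array) by group, with the mean and SD of each group as bars. For OSMR 4 of 5 atretic points lie above all small healthy points, for FOS and EGR1 3 of 5, and the large follicles spread over the widest range in FOS and EGR1.

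Between large and small healthy follicles 0 of 31 pathway genes rose and 0 fell, with a median difference of -0.015, while over all genes tested 2.44% rose and 0.76% fell. The smallest adjusted p belonged to PTN, the heparin-binding growth factor pleiotrophin, which is of the other neurotrophic families and is named here after its values were seen. It averaged 9.25 ± 0.26 in large follicles (SD, n = 4) and 8.42 ± 0.51 in small healthy follicles (n = 10), a difference of 0.83 (SE 0.25, limma adjusted p = 0.0729). BEX3 was the next, with a difference of -0.32 (limma adjusted p = 0.104). Between rounded and columnar follicles 0 of 31 passed, with a median of 0.02 and differences between -0.22 and 0.44.

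The genes whose pattern over the 19 arrays was nearest to that of NTRK2 were found by Pearson correlation with its first probe set, as a description across follicles that share array, group and RNA preparation. They were CLDN5, a claudin of endothelial tight junctions, at 0.923, PDE9A, a cyclic GMP phosphodiesterase, at 0.913, MAP1LC3B at 0.899, PFKFB2 at 0.891 and PLN at 0.890. CLDN5 averaged 7.34 ± 0.72 in atretic, 7.05 ± 0.79 in large and 6.02 ± 0.39 in small healthy follicles. With the mean of each group subtracted, the nearest were NET1 at 0.913, STAT3 at 0.898, CLDN5 at 0.885, ITGA7 at 0.876 and PDE9A at 0.867. CLDN5 and PDE9A thus stood in both lists, so that follicles of the same group with more NTRK2 tended to have more of both. STAT3, the transcription factor that gp130 receptors activate, averaged 7.82 ± 0.42 in atretic, 7.25 ± 0.37 in large and 6.97 ± 0.31 in small healthy follicles.

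**Figure D5:**
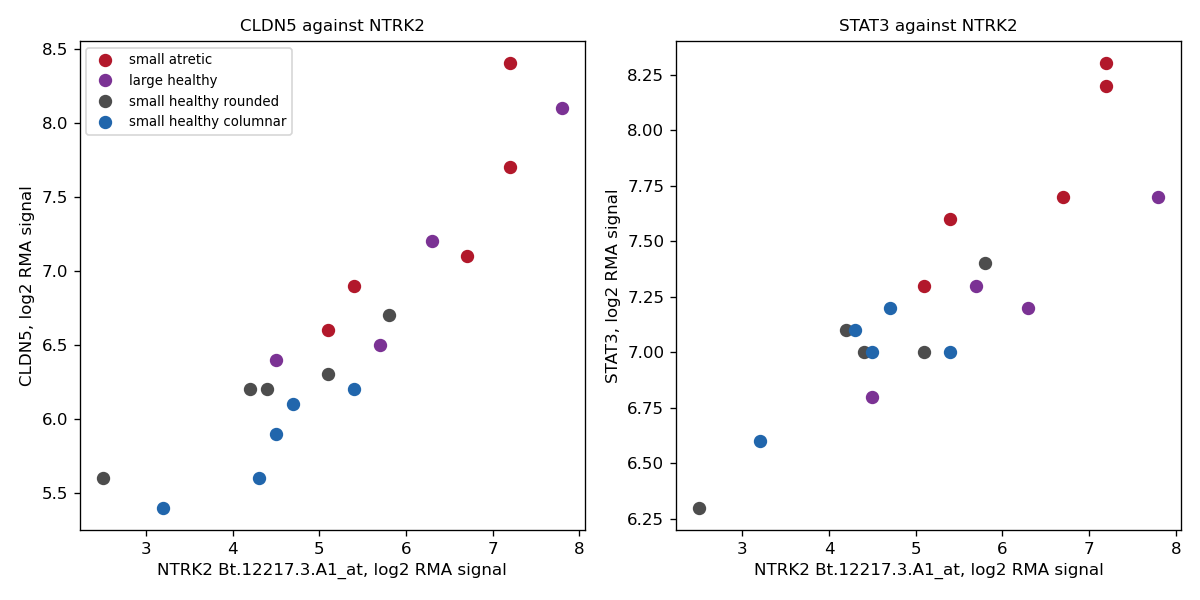
Log2 RMA signals of CLDN5 (left) and STAT3 (right) are plotted against that of NTRK2 on Bt.12217.3.A1_at, 1 point per follicle, coloured by group. CLDN5 climbs with NTRK2 across the groups (Pearson r 0.923 over 19 arrays), and STAT3 climbs with it inside each group (0.898 after group means were subtracted).

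For NGFR the nearest genes were less close. They were IFITM5 at 0.824, IQSEC1 at 0.80, MYBPC3 at 0.782, LOC100301250 at 0.776 and FHOD3 at 0.775, and with group means subtracted FHOD3 came first at 0.825. FHOD3, a formin that assembles actin filaments, averaged 3.96 ± 0.76 in atretic, 4.00 ± 0.63 in large and 4.86 ± 0.42 in small healthy follicles. No gene stood in the lists of both receptors.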

How the data were processed

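RMA summarisation and quantile normalization were done by the authors, who deposited 1 log2 signal for each probe set and array, with 1 decimal. Partek 6.5 is named in the submitters' processing notes. The values of the 19 arrays were used without further normalization. Probe sets were named from the annotation table of the array: 13317 carried 1 symbol, 86 several and 10724 none. After 111 control probe sets were left out, those were tested whose log2 signal exceeded 3 in 50% or more of the follicles of 1 type, 15470 or 15570 by comparison. Groups were compared with limma 3.58.1 in R 4.3.3 (lmFit, eBayes) with Benjamini-Hochberg adjustment over all probe sets tested. A gene rose or fell at an adjusted p under 0.05. Atretic and large follicles were each set against the 10 small healthy ones, and rounded against columnar follicles with all 14 healthy arrays in the fit. Each pathway gene was represented by its probe set with the highest mean among those tested.

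The members, the pathway lists and the marker lists were chosen with earlier results of these data known. All member probe sets were named, then the 2 genes of each pathway list with the smallest p between atretic and small healthy follicles, and the 5 genes with the nearest pattern to each receptor; others were named after their values were seen or as examples of a list's range. The fit was tried on simulated arrays with independent normal noise for each probe set and 200 probe sets changed. There 92% of 2-fold changes were recovered in the atretic comparison, with 4.48% of calls false, and 92% in the large comparison, with 6.47% false. In the data 4939 probe sets passed in the atretic comparison and probe sets need not vary independently, so these shares do not give the power or error there. Arrays have no depth of reading, and precision depends on how many there are and on the spread among follicles. Alternatives were other detection limits, normalizations, weights and fits, the small healthy groups apart, a replicate block, and leaving out arrays. The sample records and the methods of the study differ in the RNA kits and amounts.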

Additional observations from a re-analysis of the deposited data

Results flagged for a closer look

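Of 68 groups of follicles looked at, 3 held a follicle far from the others of its group, and chance alone marks about 1 group in 20. EGR1 was at 8.8 in rounded follicle 1, against 7.1 to 7.4 in the other rounded follicles. RAPGEF1 was at 6.3 in large follicle 4, against 5.7 in the other large follicles. SORL1 was at 6.1 in columnar follicle 3, against 5.7 to 5.8 in the other columnar follicles. No member probe set was among them.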

How the results depend on the processing

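NTRK2 was higher in atretic than small healthy follicles under all alternatives run, by 1.69 to 2.22 on the first and 1.27 to 1.72 on the second probe set, and on the first it passed in 25 of 26 of them. The exception was the comparison with rounded follicles alone, 5 against 5, with 1.92 (limma adjusted p = 0.0914; 1.46 on the second probe set), where the numbers of pathway genes that rose and fell were 0 and 0, leukocyte markers that rose 0 and probe sets that passed 244 rather than 4939. The pathway genes that fell in atretic follicles were 4, rather than 2, with arrays shifted to the same mean and 4 with array weights, and 1 to 3 with 1 follicle left out, the lowest without atretic follicle 5. PTN rose in large follicles with all 4 groups in 1 fit (1 gene), and with 1 follicle left out the count was 0 to 1, the highest without rounded follicle 1. NGFR did not pass in any alternative between atretic and small healthy follicles, at -0.66 to -0.01. In large against small healthy follicles NTRK2 differed by 1.09 to 2.19 and 1.41 to 2.01 and NGFR by -1.24 to -0.71. Probe sets that passed were 3162 for the atretic comparison with detection at 5 and 2978 without atretic follicle 5. For the large comparison, with 557, they ranged from 18 against rounded follicles alone to 1078 with array weights. With detection at 5, NGFR and the second NTRK2 probe set could not be fitted.

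Deviations from the group mean were correlated between same-numbered follicles of different groups, at -0.34 to 0.57 (27 pairs, median 0.025, 10 over 0.1). Differently numbered follicles were not compared, so whether the numbers pair follicles cannot be told from these values. With the replicate number as a block NTRK2 differed by 1.91 and 1.48 in atretic follicles (limma adjusted p = 0.0183 on the first probe set), 8 pathway genes rose and 3 fell, and 341 probe sets passed for large follicles.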

Other observations

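The probe set Bt.12217.1.S1_at, which shares the stem of its identifier with the NTRK2 probe sets but has no gene in the annotation used, had log2 signals of 7.3, 6.9, 5.1, 5.7 and 7.2 in atretic follicles, 7.8, 4.4, 5.9 and 6.4 in large follicles, 6.2, 5.1, 3.9, 4.4 and 2.0 in rounded follicles and 4.2, 2.6, 4.7, 5.4 and 4.2 in columnar follicles. The mean log2 signal of the poly-A labelling controls was 5.17 to 5.75 in large follicles and 3.9 to 4.50 in small healthy follicles, and it was 4.13 to 4.75 in atretic follicles.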
